A study of Homo sapiens with 8 samples.

Results

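The nuclear genes for the subunits of the respiratory chain and of ATP synthase were followed in parental and indisulam-resistant Panc10.05 cells. They were taken as every protein-coding nuclear gene of GENCODE release 44 whose symbol begins as those of complex I (NDUFA, NDUFB, NDUFC, NDUFS or NDUFV with a number), is SDHA to SDHD (complex II), begins with UQCR (complex III), with COX4 to COX8 (complex IV), or with ATP5 (complex V, ATP synthase). This name rule gave 89 of the 60675 genes in the count tables: 39 of complex I, 4 of complex II, 9 of complex III, 17 of complex IV and 20 of complex V. All 89 were listed in the tables, and 81 passed the filter on low counts, among 16661 genes tested.

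Panc10.05 is a long-established line of human pancreatic cancer cells, from which the resistant line was derived by culture in rising doses of indisulam. Indisulam is a sulfonamide that recruits the splicing factor RBM39 to a ubiquitin ligase, so that RBM39 protein is degraded. There were 4 groups of 2 libraries each. Parental untreated cells received no drug, and parental indisulam cells received 2 µM for 18 h. Resistant indisulam cells were grown without a break in 2 µM, and resistant untreated cells had been kept off the drug for a week. The drug exposure of the resistant cells was therefore longer than that of the parental cells, and exposure time and line cannot be told apart in the comparisons of both lines on the drug. The resistant line stands for 1 derivation from 1 parental line. The study calls the paired libraries technical replicates, so the p-values below measure the spread between these libraries alone. Notes on culture and dosing among the labels speak of A549 cells, but titles and cell line entries give Panc10.05, which was followed.

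The respiratory chain passes electrons from NADH (through complex I) and succinate (through complex II) to ubiquinone, and on through complex III, cytochrome c and complex IV to oxygen. Complexes I, III and IV pump protons across the inner mitochondrial membrane, and complex V lets them return through its rotating c-ring to make ATP. Most subunits are encoded in the nucleus and imported, whereas a core set of complexes I, III, IV and V is encoded in mitochondrial DNA, so that both genomes supply parts of the same machines.

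The libraries held 65266253 to 108002436 reads assigned to genes. RBM39 mRNA rose from 332 and 337 to 716 and 731 CPM (the reads of a gene scaled to library size, here with TMM factors) in parental cells and from 299 and 311 to 577 and 591 CPM in resistant cells, with log2 changes of 1.11 and 0.94. The drug acts on RBM39 protein, so its mRNA does not check the labels. All 7 markers of pancreatic ductal epithelium were detected in every library, with a summed level of 6329 to 12248 CPM. The summed level was 1.35 to 4.03 CPM for 5 fibroblast markers (DCN was at 0 in all libraries), 0.0308 to 0.194 CPM for 4 leukocyte markers (PTPRC and CD3E were at 0 in all libraries) and 0.0308 to 0.168 CPM for 5 striated muscle markers (MYH7 was at 0 in all libraries).

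Promoter sequence was available for 70 of the 89 members, as 83 windows of 300 bases around the start of transcription (RefSeq, GRCh38.p14). The NRF1 core CGCANGCGC, the site of nuclear respiratory factor 1, occurred on either strand in 26 windows (31.3%), against 7.47% of all 35116 windows in the table. The YY1 motif AAGATGGCG occurred in 10 windows (12%), against 1.75%, and the ETS motif CCGGAAG, read by factors such as GABPA, in 22 (26.5%), against 10.3%. The box GGGCGG was found in 62.7% and the E-box CACGTG in 8.43% of the windows, against 45% and 7.26%. Among the 22199 windows of protein-coding genes the shares were 9.53% for NRF1, 2.41% for YY1, 12.8% for ETS, 56.3% for GGGCGG and 8.34% for the E-box, so the E-box was about as frequent in members as there. Windows of 1 gene can overlap, and the searched motifs can overlap each other. The 4 promoters printed here belong to members on which the results turn: NDUFS4 had the largest rise with the drug in parental cells (chr5:53560389-53560688, plus strand), NDUFA8 the largest deficit of resistant cells on the drug (chr9:122159730-122160029, minus strand), UQCRFS1 is the catalytic iron-sulfur subunit that rose in parental and fell in resistant cells (chr19:29213102-29213401, minus strand), and ATP5MC1 fell in both lines (chr17:48892537-48892836, plus strand). Capitals mark the YY1 motif in NDUFS4 and the NRF1 core in NDUFA8 and UQCRFS1, including overlapping matches on both strands. The window of ATP5MC1 held none of the NRF1, YY1 or ETS letters.
NDUFS4: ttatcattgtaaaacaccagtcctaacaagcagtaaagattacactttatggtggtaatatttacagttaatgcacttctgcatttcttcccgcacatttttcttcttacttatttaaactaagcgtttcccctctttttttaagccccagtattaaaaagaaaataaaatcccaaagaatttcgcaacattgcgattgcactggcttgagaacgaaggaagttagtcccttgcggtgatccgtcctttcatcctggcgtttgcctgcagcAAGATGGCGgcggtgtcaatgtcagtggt
NDUFA8: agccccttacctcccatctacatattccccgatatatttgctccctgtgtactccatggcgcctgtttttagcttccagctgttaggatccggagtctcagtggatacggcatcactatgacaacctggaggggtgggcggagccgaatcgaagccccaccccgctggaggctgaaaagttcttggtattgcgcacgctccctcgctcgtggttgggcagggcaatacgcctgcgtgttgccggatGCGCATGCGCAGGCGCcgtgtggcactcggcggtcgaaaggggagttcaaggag
UQCRFS1: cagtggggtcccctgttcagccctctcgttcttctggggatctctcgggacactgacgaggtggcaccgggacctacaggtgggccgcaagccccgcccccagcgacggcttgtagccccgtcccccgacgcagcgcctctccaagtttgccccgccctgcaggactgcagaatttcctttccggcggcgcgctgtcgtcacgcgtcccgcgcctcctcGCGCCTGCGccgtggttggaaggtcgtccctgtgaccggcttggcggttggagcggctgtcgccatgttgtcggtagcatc
ATP5MC1: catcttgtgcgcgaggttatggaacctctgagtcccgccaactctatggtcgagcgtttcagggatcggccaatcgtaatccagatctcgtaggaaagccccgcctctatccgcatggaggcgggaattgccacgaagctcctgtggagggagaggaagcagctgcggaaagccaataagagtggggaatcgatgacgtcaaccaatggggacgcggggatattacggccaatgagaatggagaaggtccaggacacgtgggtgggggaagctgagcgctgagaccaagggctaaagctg

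Levels of different subunits were compared per kb of exon length, as the mean of all 8 libraries. ATP5F1B, the catalytic beta subunit of ATP synthase, stood at 399.6 CPM per kb and was the highest member of complex V under each of 3 length measures (all exons, the longest transcript, the canonical transcript). UQCRH led complex III with 82.4 CPM per kb and SDHB led complex II with 34.4 CPM per kb under each measure. The order in the other complexes depended on the length. In complex I the highest was NDUFA1 with 184.9 CPM per kb of all exons, but NDUFB9 with 371.4 CPM per kb of canonical transcript. In complex IV it was COX8A with 216.5 and COX4I1 with 450.1 CPM per kb on those scales. The lowest tested members were NDUFA4L2, UQCRHL and COX6B2 in complexes I, III and IV, at 0.126, 0.286 and 0.192 CPM per kb of all exons, and SDHA in complex II at 2.17.

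The low level of SDHA, the flavoprotein with the active site of complex II, touches a limit of the tables. Reads falling on more than 1 gene were set aside as ambiguous (4.31 to 4.5% of assigned and ambiguous reads per library), and 9 members share at least 50% of their canonical exon bases with another gene on the same strand: NDUFA7, NDUFA11, NDUFA13, NDUFB8, NDUFV2, SDHA, ATP5PO and the read-through genes NDUFC2-KCTD14 and ATP5MF-PTCD1. The annotation release of the counting was not given. If it held the same overlapping genes, the counts of these 9 members rest on the remainder of their exons. NDUFS7 shares 51.3% with a gene on the opposite strand, and the strand setting of the counting was not given. UQCRHL is a near copy of UQCRH, and reads of such copies may have been split or dropped in the alignment.

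Of the 8 members that did not pass the filter, COX4I2, COX6A2, COX7A1, COX7B2 and NDUFC2-KCTD14 had 0 reads in every library, which allows a level of up to 0.0462 CPM in the shallowest library (3 reads). COX8C had 0 to 3 reads, ATP5MF-PTCD1 1 to 5 and ATP5MGL 0 to 7. COX4I2, COX6A2, COX7A1 and COX7B2 are forms restricted to lung, muscle or testis, and their common forms COX4I1, COX6A1, COX7A2 and COX7B were all well covered. COX6B2, the testis form beside COX6B1, was the exception among the tissue-restricted forms of complex IV, with 28 to 126 reads per library. NDUFA4L2, a paralog of NDUFA4 known to be induced in low oxygen, had 18 to 41 reads and was called in none of the comparisons (adjusted p 0.11 to 0.95).

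**Figure D1:**
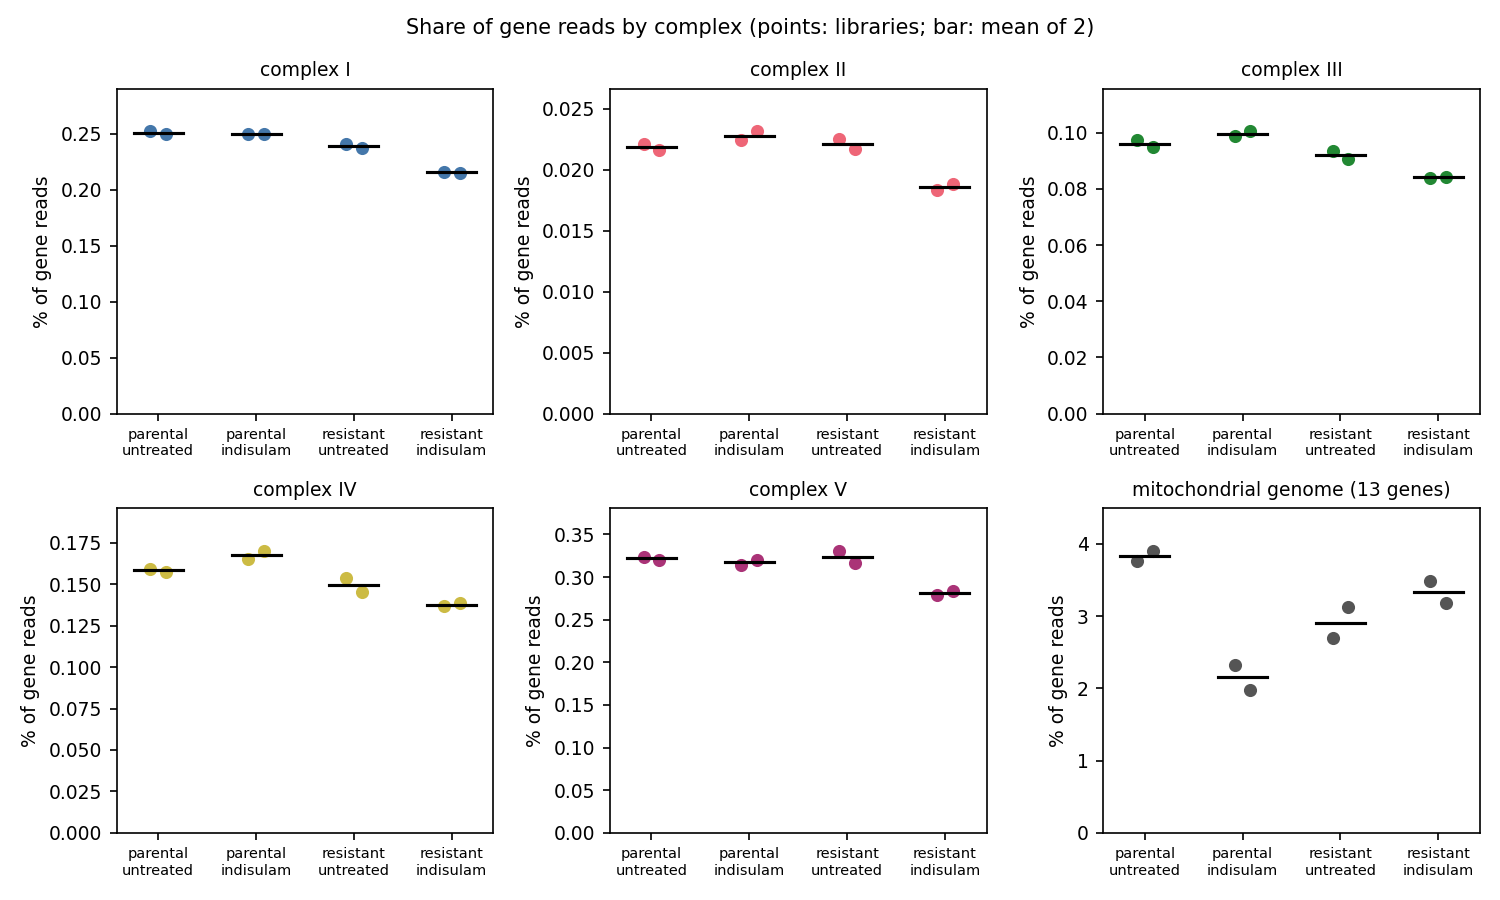
Share of gene reads taken by the members of each complex and by the 13 protein genes of the mitochondrial genome in each of the 8 libraries (vertical axes in percent of gene reads, starting at 0; points are libraries, bars the mean of 2). The resistant indisulam libraries are lowest in all 5 complexes, while the mitochondrial genome is lowest in parental indisulam cells.

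Together the 89 genes took 0.849% ± 0.0076 of gene reads in untreated parental cells and 0.857% ± 0.0099 with the drug (SD, n = 2). In resistant cells the share was 0.827% ± 0.021 off the drug and 0.737% ± 0.0037 on it (SD, n = 2). The resistant indisulam libraries, with 0.735 and 0.740%, lay below all others. The parental groups overlapped each other, and the resistant untreated libraries lay just below them. The 13 protein genes of the mitochondrial genome took 3.84% ± 0.099, 2.16% ± 0.25, 2.91% ± 0.30 and 3.33% ± 0.22 (SD, n = 2) in the same order of groups, and the plot of shares by complex shows both. A share depends on all other genes, so the comparisons below rest on the fit across all genes (edgeR's quasi-likelihood test, p adjusted by Benjamini-Hochberg over the 16661 genes, called when under 0.05).

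To determine how the chain responds to the drug in sensitive cells, parental cells on indisulam were compared with untreated ones. Of the 81 subunits tested, 46 rose, 14 fell and 21 were not called. Over all genes 58.2% were called, 31.6% higher and 26.6% lower. The changes were small, with a median log2 change of 0.11 against 0.014 over all genes. Among protein-coding genes in the same fit 39.3% were higher and 25.1% lower, with a median of 0.057. Only NDUFA7, COX6B2 and ATP5MC1 were called and passed 0.5 log2 units, against 15.8% of all genes. Scaling by library totals turned the split to 25 higher and 20 lower, and moved the median of the subunits to 0.043 and that of all genes to -0.051. The split was 32 higher and 18 lower when genes needed a mean of at least 1 CPM, and 35 and 18 among protein-coding genes alone. Without parental indisulam replicate 2, 29 rose and 12 fell, with a median of 0.068.

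By complex, the counts were as follows. In complex IV, which hands electrons to oxygen, 11 of 12 tested subunits rose and COX6B2 fell, with a median of 0.16. In complex III 6 of 9 rose and none fell (median 0.19), and in complex II 3 of 4 rose (median 0.15). Complex I was mixed, with 19 of 38 higher and 9 lower (median 0.069). Complex V had 7 of 18 higher and 4 lower (median 0.049), and its median was -0.018 with library totals, -0.0077 when genes needed a mean of at least 1 CPM and -0.0051 among protein-coding genes alone. These differences between complexes were not tested.

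NDUFS4, an accessory subunit needed to complete the electron input arm of complex I (ENSG00000164258, chromosome 5, 53560633 to 53683338, plus strand), rose most. It stood at 54.5 and 54.2 CPM in the untreated and 71.3 and 74.1 CPM in the treated parental libraries, a log2 change of 0.42 (SE 0.033, adjusted p 2.2e-10). Its level in resistant cells was 59.3 and 57.0 CPM off and 58.2 and 59.2 CPM on the drug, where the libraries overlapped. NDUFC2, a membrane arm subunit (ENSG00000151366, chromosome 11, 78068297 to 78079862, minus strand), rose from 12.45 and 12.98 to 16.4 and 17.4 CPM, by 0.41 (SE 0.070, adjusted p 0.00015). UQCR11, a small subunit of complex III (ENSG00000127540, chromosome 19, 1597169 to 1605473, minus strand), rose from 11.6 and 11.4 to 14.6 and 15.4 CPM, by 0.39 (SE 0.056, adjusted p 3.1e-06). The rule that ranked these 3 genes took only genes whose libraries did not overlap between groups in parental cells.

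The largest falls came from sparse genes and from the c-ring. NDUFA7 fell by 0.95 (SE 0.26, adjusted p 0.0028) on the log2 scale, from 47 and 66 reads to 21 and 20, and 77.9% of its canonical exon bases lie under another gene. Its call was lost with the DESeq2 Wald test (adjusted p 0.070) and without parental untreated replicate 2 (0.079). COX6B2 fell by 0.85 (SE 0.17, adjusted p 0.00019), from 114 and 126 reads to 50 and 44. ATP5MC1, one of the genes for the c-ring protein (ENSG00000159199, chromosome 17, 48892765 to 48895871, plus strand), was well covered. Its level was 60.6 and 61.6 CPM without and 38.2 and 39.6 CPM with the drug, so that it fell by 0.65 (SE 0.039, adjusted p 4.3e-12), or 36.4%.

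Some catalytic subunits of complex I fell while most subunits rose. NDUFS1, the largest iron-sulfur subunit, fell from 149.7 and 151 to 118 and 121 CPM, by 0.34 (SE 0.031, adjusted p 3.9e-09) on the log2 scale. NDUFV1, which binds NADH and FMN, fell by 0.14 (SE 0.029, adjusted p 0.00028), but with the GC and length correction its change was -0.0059 (adjusted p 0.84). In complex II, SDHB, SDHC and SDHD rose by 0.16, 0.16 and 0.13, of which SDHC and SDHD lost the call with library totals and without parental indisulam replicate 2, while SDHA had a change of -0.071 (SE 0.044, adjusted p 0.18). UQCRFS1, the Rieske iron-sulfur protein of complex III, rose by 0.29 (SE 0.030, adjusted p 1.7e-08), and its core proteins UQCRC1 and UQCRC2 were not called (-0.061 and 0.028). Both were called lower in some alternatives, UQCRC1 at -0.13 with library totals and UQCRC2 at -0.070 with the GC and length correction. SDHA was also called lower in some, for example at -0.14 with library totals (adjusted p 0.012). Of the nuclear subunits around the catalytic core of complex IV, COX5B rose by 0.20 (SE 0.033, adjusted p 1.8e-05). COX4I1 and COX5A had small changes of 0.076 (SE 0.031, adjusted p 0.037) and 0.087 (SE 0.033, adjusted p 0.029), which lost the call in most alternatives and were 0.0095 and 0.020 with library totals (adjusted p 0.80 and 0.62). ATP5F1A, the alpha subunit of ATP synthase, rose by 0.14, and ATP5F1B was not called (0.040). With the GC and length correction ATP5F1B was called higher, by 0.054 (adjusted p 0.046).

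In resistant cells, on the drug against off it, the subunits were mostly lower. Of 81 tested, 63 fell, 3 rose and 15 were not called, where 50.7% of all genes were called, 25.8% lower and 24.9% higher. The median was -0.19 against 0.0093 over all genes, and -0.14 against 0.058 with library totals. Called changes over 0.5 log2 units were again few, 2 subunits (NDUFV2 and ATP5MC1) against 13.8% of all genes. All 4 subunits of complex II fell (median -0.27), as did 16 of 18 in complex V (-0.23), 10 of 12 in complex IV (-0.17), 26 of 38 in complex I (-0.16) and 7 of 9 in complex III (-0.16).

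The 3 largest falls were the 3 genes for the c-ring, ATP5MC1, ATP5MC2 and ATP5MC3. They encode different import sequences on the same mature protein, the subunit that binds protons in the turning ring. ATP5MC1 stood at 68.6 and 64.4 CPM off and 48.6 and 45.4 CPM on the drug and fell by 0.50 (SE 0.039, adjusted p 2.3e-10). ATP5MC2 (ENSG00000135390, chromosome 12, 53632726 to 53677408, minus strand) fell from 153 and 142 to 111 and 108 CPM, by 0.44 (SE 0.033, adjusted p 1.2e-10). ATP5MC3 (ENSG00000154518, chromosome 2, 175176258 to 175181710, minus strand) fell from 229 and 219 to 171 and 172 CPM, by 0.38 (SE 0.029, adjusted p 9.6e-11). Falls were ranked only among called genes without overlap, so in each gene both libraries on the drug lay below both libraries off it. In parental cells ATP5MC3 fell by 0.090 (SE 0.028, adjusted p 0.0085), a call lost without either parental untreated library, and ATP5MC2 had a change of -0.035 (SE 0.033, adjusted p 0.38). ATP5MC2 was called lower there with library totals (-0.10, adjusted p 0.011) and a mean of at least 1 CPM (-0.092, 0.023). The same held among protein-coding genes alone (-0.089, 0.024).

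The rises were few. ATP5IF1, the small protein that blocks ATP synthase from running backwards (ENSG00000130770, chromosome 1, 28236109 to 28246906, plus strand), rose from 35.8 and 35.6 to 46.6 and 45.7 CPM, by 0.37 (SE 0.035, adjusted p 5.1e-09). In parental cells it stayed between 54.1 and 55.4 CPM in all 4 libraries, with a log2 change of -0.013 (SE 0.032, adjusted p 0.76). With library totals ATP5IF1 was called lower there, at -0.079 (adjusted p 0.038). NDUFC1 rose by 0.10 (SE 0.036, adjusted p 0.028), from 33.3 and 33.5 to 36.0 and 35.6 CPM, and by 0.088 in parental cells. The rise of NDUFC1 in resistant cells lost its call with the DESeq2 Wald test (adjusted p 0.13), without a filter (0.087), with only the groups compared (0.073) and in 6 of 8 fits that left out a library. NDUFV2, an iron-sulfur subunit of the input arm, rose by 0.61 (SE 0.13, adjusted p 0.00045), but from 98 and 87 reads to 132 and 200, with 90% of its canonical exon bases under another gene.

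**Figure D2:**
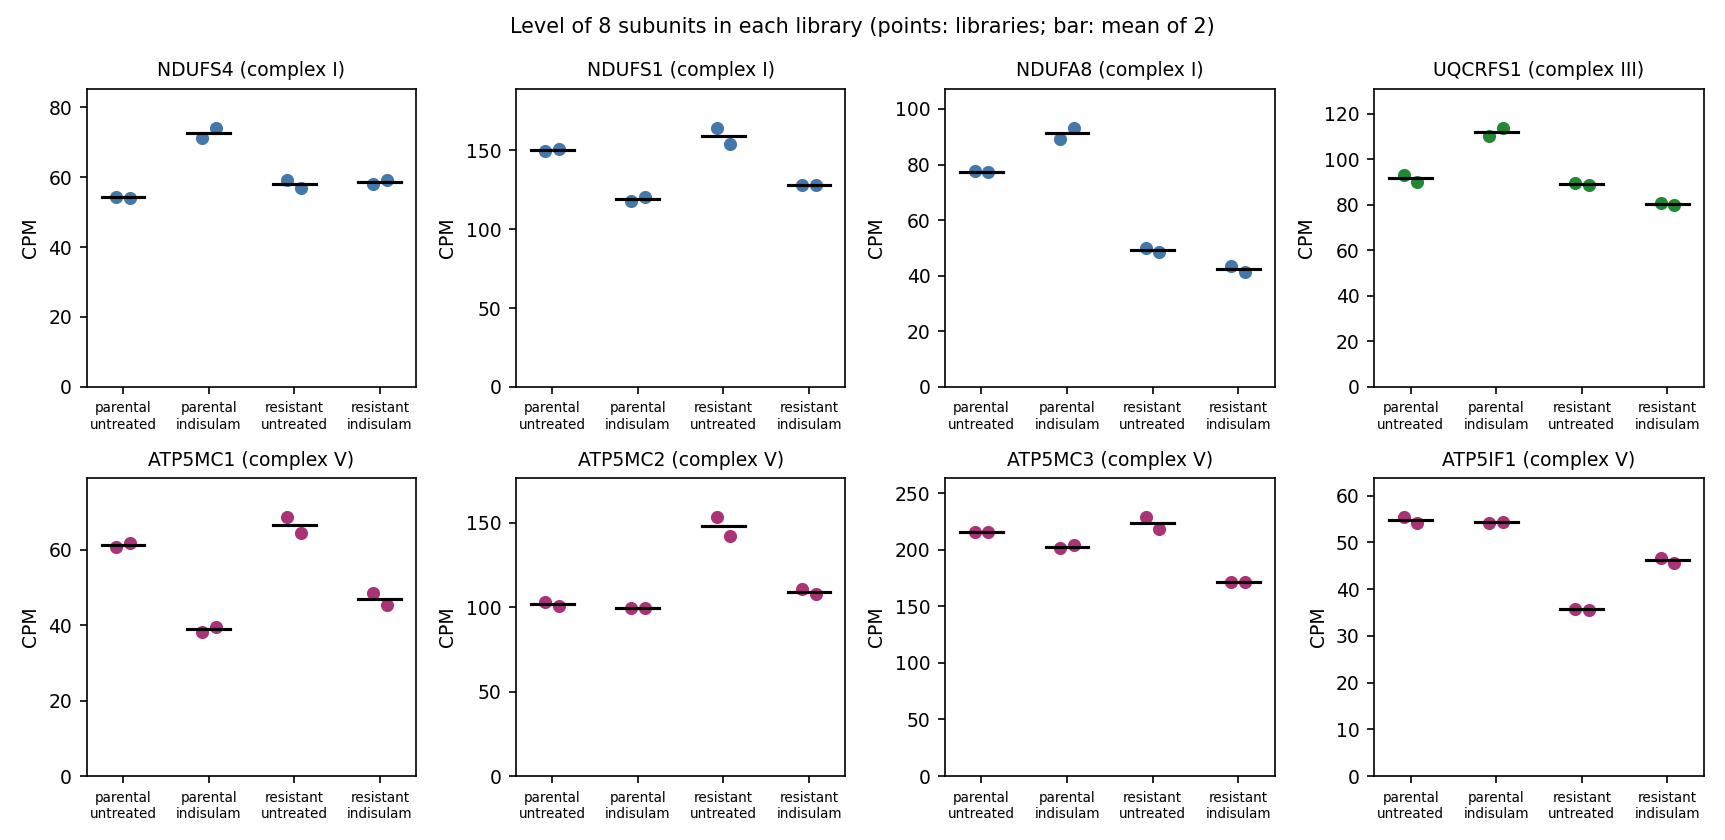
Level of 8 subunits in each library (vertical axes in CPM, starting at 0; points are libraries, bars the mean of 2). NDUFS4 is high in parental indisulam cells alone, the 3 ATP5MC genes are lower on than off the drug in resistant cells, and ATP5IF1 is lowest in resistant untreated cells.

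The catalytic subunits fell with the rest in resistant cells. NDUFS1 and NDUFV1 fell by 0.31 and 0.18. SDHA, SDHB, SDHC and SDHD fell by 0.14, 0.31, 0.22 and 0.34. SDHB, for example, stood at 91.8 and 89.4 CPM off and 72.7 and 73.2 CPM on the drug. UQCRC1, UQCRC2 and UQCRFS1 fell by 0.21, 0.16 and 0.15, and COX4I1, COX5A and COX5B by 0.20, 0.22 and 0.23. ATP5F1A and ATP5F1B fell by 0.23 and 0.23, the latter from 954 and 915 to 797 and 798 CPM. Each of these falls was called, with adjusted p from 1.4e-08 to 0.023. SDHA, the least certain, lost the call with library totals (-0.091, adjusted p 0.14), the DESeq2 Wald test (0.081), a mean of at least 1 CPM (0.060), the GC and length correction (0.061), and without resistant untreated replicate 1 (0.26) or resistant indisulam replicate 1 (0.17).

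Side by side, 38 subunits rose in parental and fell in resistant cells, 10 fell in both lines and 1 (NDUFC1) rose in both. Of all genes, 31.6% rose and 26.6% fell in parental cells, and 24.9% rose and 25.8% fell in resistant cells. The share of all genes with each pair of calls was not computed. The 38 became 16 with library totals, 24 when genes needed a mean of at least 1 CPM, and 23 without parental indisulam replicate 2. The 10 that fell in both were NDUFA3, NDUFA11, NDUFS1, NDUFS8, NDUFV1, NDUFV3, ATP5F1D, ATP5MC1, ATP5MC3 and ATP5MF. The difference of the responses (the change in resistant minus the change in parental cells) was then tested in the same fit. It was called for 63 of 81 subunits, lower in 59 and higher in 4, where 50.1% of all genes were called, 27.5% lower and 22.7% higher. The median difference was -0.29 against 0.010 over all genes. With library totals it was -0.17 against 0.13. Called differences over 0.5 log2 units were found in 5 subunits (COX6B2, NDUFV2, NDUFB3, NDUFB5 and NDUFA4), against 16.4% of all genes.

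**Figure D3:**
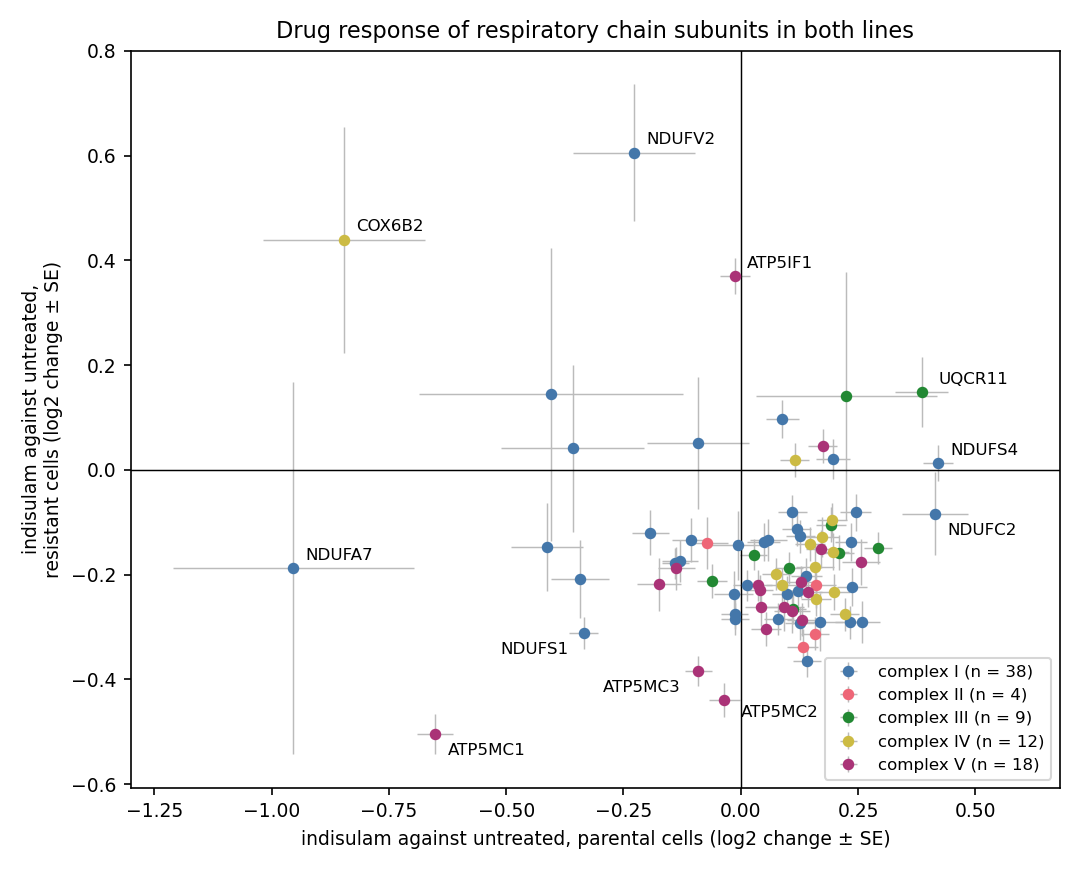
Log2 change with indisulam in parental cells (horizontal axis) and resistant cells (vertical axis) of the 81 tested subunits, coloured by complex, with standard errors. Most points lie right of 0 and below 0, the 3 ATP5MC genes are lowest on the vertical axis, and the widest error bars belong to genes with few reads such as NDUFA7 and COX6B2.

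By complex, the difference was lower in 24 of 38 subunits of complex I, 3 of 4 of complex II, 8 of 9 of complex III, 10 of 12 of complex IV and 14 of 18 of complex V. Among well covered genes the largest differences lay in genes named for complex I. NDUFB3, a membrane arm subunit, stood at 44.4 and 42.4 and then 51.1 and 52.7 CPM in parental cells, and at 47.5 and 44.2 and then 36.7 and 38.2 CPM in resistant cells, a difference of -0.55 (SE 0.056, adjusted p 3.8e-08). NDUFB5, of the same arm, rose by 0.23 in parental and fell by 0.29 in resistant cells, a difference of -0.52 (SE 0.044, adjusted p 2.3e-09). NDUFA4, named for complex I but known as a subunit of complex IV, gave -0.51 (SE 0.042, adjusted p 2.1e-09). In both lines the treated and untreated libraries of NDUFB3, NDUFB5 and NDUFA4 did not overlap.

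Of the subunits with a called positive difference, ATP5IF1 gave 0.38 (SE 0.047, adjusted p 6.1e-07) and ATP5MC1, which fell less in resistant cells, gave 0.15 (SE 0.055, adjusted p 0.028). The call of ATP5MC1 was lost with the DESeq2 Wald test (adjusted p 0.11) and in 5 of 8 fits that left out a library (0.052 to 0.11). COX6B2 gave 1.29 (SE 0.28, adjusted p 0.00047) and NDUFV2 0.83 (SE 0.18, adjusted p 0.00062), both on few reads. ATP5MC2 and ATP5MC3 gave -0.40 (SE 0.047, adjusted p 2.4e-07) and -0.29 (SE 0.040, adjusted p 2.3e-06). NDUFS1 and NDUFV1 fell in both lines, and their differences of 0.024 (SE 0.044) and -0.039 (SE 0.042) were not called. With the GC and length correction both differences were called, NDUFS1 at 0.098 (adjusted p 0.048) and NDUFV1 at -0.18 (4.3e-05). NDUFS1 was also called with library totals, at 0.14 (adjusted p 0.010), and when genes needed a mean of at least 1 CPM, at 0.11 (0.042). SDHB, SDHD and UQCRFS1 had differences of -0.47, -0.47 and -0.44, and those of COX4I1, COX5A, COX5B, ATP5F1A and ATP5F1B ranged from -0.43 to -0.27. The remaining named core subunits with a called difference were SDHC (-0.38), UQCRC2 (-0.19) and UQCRC1 (-0.15). UQCRC2 lost the call with library totals (-0.074, adjusted p 0.12) and the GC and length correction (-0.069, 0.086). UQCRC1 lost it with library totals (-0.036, adjusted p 0.52), a mean of at least 1 CPM (-0.066, 0.21), among protein-coding genes (-0.085, 0.11), and without resistant untreated replicate 1 (-0.091, 0.12) or resistant indisulam replicate 2 (-0.095, 0.13).

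**Figure D4:**
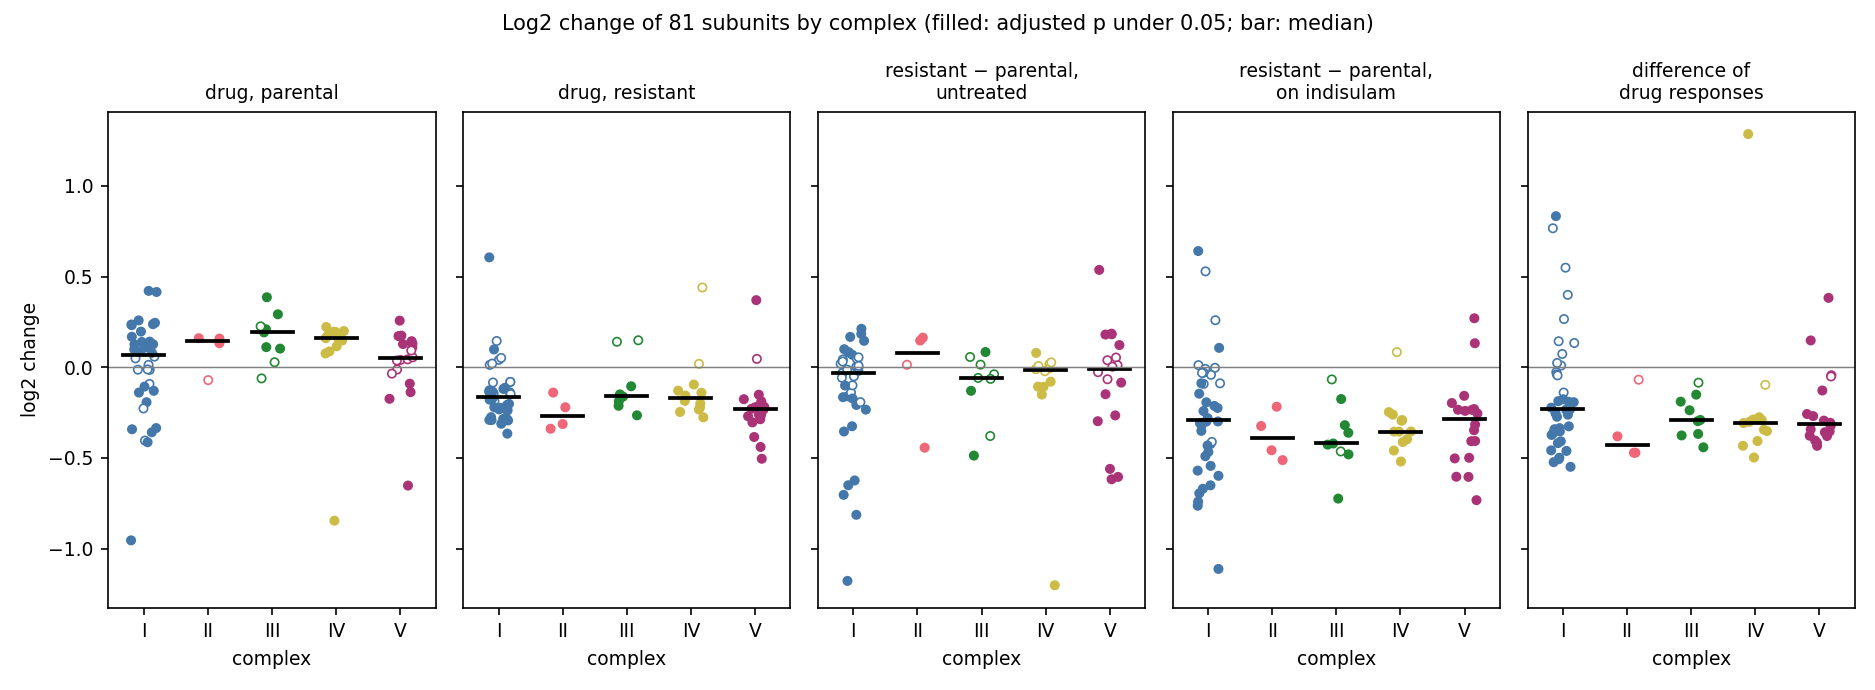
Log2 change of the 81 tested subunits by complex in the 5 comparisons (vertical axis, log2 units; filled points have an adjusted p under 0.05, bars are medians). The medians of all 5 complexes lie above 0 with the drug in parental cells, below 0 with the drug in resistant cells, and lowest when resistant and parental cells are compared on the drug or their responses are subtracted.

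Off the drug, the subunits went both ways between the lines. Resistant cells had 28 subunits lower and 16 higher than parental cells and 37 not called, where 60.1% of all genes were called, 29.9% lower and 30.3% higher. The median was -0.027 against -0.015 over all genes. The split rested in part on single libraries: without resistant untreated replicate 2, 22 subunits were higher and 24 lower, and without resistant untreated replicate 1, 9 were higher and 29 lower. Single subunits differed widely, 10 of them being called and over 0.5 log2 units, against 24.6% of all genes.

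ATP5MC2 was the subunit with the largest excess in resistant untreated cells, with 103 and 101 CPM in parental and 153 and 142 CPM in resistant libraries, a difference of 0.54 (SE 0.033, adjusted p 7.5e-13). NDUFB11 and ATP5F1E, the epsilon subunit of ATP synthase, were higher by 0.21 (SE 0.031, adjusted p 2.3e-06) and 0.18 (SE 0.031, adjusted p 1.4e-05). At the other end, COX6B2 was lower by 1.20 (SE 0.19, adjusted p 5.8e-06) and NDUFA7 by 1.18 (SE 0.27, adjusted p 0.00072), both sparse. NDUFS7, which carries the last iron-sulfur cluster before ubiquinone, stood at 44.8 and 42.8 CPM in parental and 22.3 and 27.7 CPM in resistant cells, a difference of -0.81 (SE 0.12, adjusted p 0.0027). ATP5IF1 was lower by 0.62 (SE 0.034, adjusted p 9e-14), 55.4 and 54.1 against 35.8 and 35.6 CPM, and NDUFA8, an accessory subunit facing the intermembrane space, was lower by 0.65 (SE 0.034, adjusted p 4.7e-14). SDHA was lower by 0.44 (SE 0.046, adjusted p 1.3e-08), while SDHB and SDHC were higher by 0.15 and 0.16, the latter not called without resistant untreated replicate 1 (0.11, adjusted p 0.068).

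On the drug, resistant cells had 63 subunits lower than parental cells on the drug, 4 higher and 14 not called, where 69.5% of all genes were called, 34.9% lower and 34.6% higher. The median was -0.32 against 0.0032 over all genes, and -0.23 against 0.091 with library totals. In 17 subunits the call came with over 0.5 log2 units, against 31.7% of all genes. Of the 63 lower subunits, 24 were also lower and 9 were higher off the drug, and 30 were not called there. Off the drug 29.9% of all genes were lower and 30.3% higher, and their share with each pair of calls was not computed. These line comparisons share no libraries with each other, but each shares libraries with the drug comparisons above. Complex V had 16 of 18 lower, complex IV 11 of 12, complex III 7 of 9, complex II 4 of 4 and complex I 25 of 38.

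NDUFA8 (ENSG00000119421, chromosome 9, 122144058 to 122159779, minus strand) had the largest deficit, with 89.4 and 93.2 CPM in parental and 43.5 and 41.2 CPM in resistant cells on the drug, a difference of -1.11 (SE 0.035, adjusted p 1.9e-18), or 53.7% lower. All 4 resistant libraries of NDUFA8 lay below all 4 parental ones. NDUFB7, another accessory subunit on the intermembrane side, was lower by 0.76 (SE 0.063, adjusted p 1.3e-06), 54.5 and 50.04 against 31.9 and 29.9 CPM. NDUFA4 was lower by 0.74 (SE 0.030, adjusted p 2.8e-16), 185 and 189 against 111 and 113 CPM. The 4 higher genes included NDUFV2, higher by 0.64 (SE 0.13, adjusted p 0.00012) on few reads, ATP5MC1, higher by 0.27 (SE 0.040, adjusted p 2.7e-06), and ATP5MC2, higher by 0.13 (SE 0.033, adjusted p 0.0012). The fourth was NDUFS1, higher by 0.11 (SE 0.032, adjusted p 0.0045). UQCRFS1, SDHD and COX7B were lower by 0.48, 0.46 and 0.52.

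The common forms of the complex IV subunits with tissue-restricted paralogs were compared next. COX6A1, COX6B1, COX7A2 and COX7B rose by 0.16, 0.16, 0.17 and 0.22 in parental cells and fell by 0.19, 0.25, 0.13 and 0.28 in resistant cells. COX6A1 lost its parental call with library totals (adjusted p 0.063) and without parental indisulam replicate 2 (0.058), and its resistant call without resistant untreated replicate 1 (0.079). COX7A2 lost its resistant call with library totals (0.087) and without resistant untreated replicate 1 (0.13) or resistant indisulam replicate 1 (0.091). COX8A rose by 0.12 in parental cells, a call lost with library totals (0.17), and was not called in resistant cells (0.019). Off the drug none of COX6A1, COX6B1, COX7A2 and COX7B was called between the lines, with differences of -0.010, -0.0056, 0.0067 and -0.022. Other common forms were called lower in resistant cells there, NDUFA4 by 0.23, COX8A by 0.15 and COX4I1 by 0.079 (adjusted p 0.030). COX8A lost this call with the GC and length correction (adjusted p 0.15) and COX4I1 with DESeq2 size factors (0.083) and the DESeq2 Wald test (0.11). With the GC and length correction COX6A1 and COX7A2 were called higher in resistant cells, by 0.137 and 0.108. COX6B2 was the only form of complex IV to fall in parental cells and had 39 and 28 reads in resistant cells off the drug and 43 and 64 on it.

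The tested members are short genes with few exons: their canonical transcripts had a median of 763 bases and 4 exons, against 3328 bases and 9 exons over 12484 nuclear protein-coding genes tested. Their GC content, taken from the longest transcript, had a median of 47.2%, near the 47.9% of those genes. The response in parental cells was ordered by GC. The median log2 change was 0.14 in 33 members under 45% GC, 0.11 in 29 members from 45 to 55%, and -0.11 in 19 members of 55% or more. All nuclear protein-coding genes showed the same order, with medians of 0.14, 0.072 and -0.10. For the difference of the responses the medians of the members were -0.34, -0.28 and -0.039, against -0.13, -0.078 and 0.14 over all such genes.

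**Figure D5:**
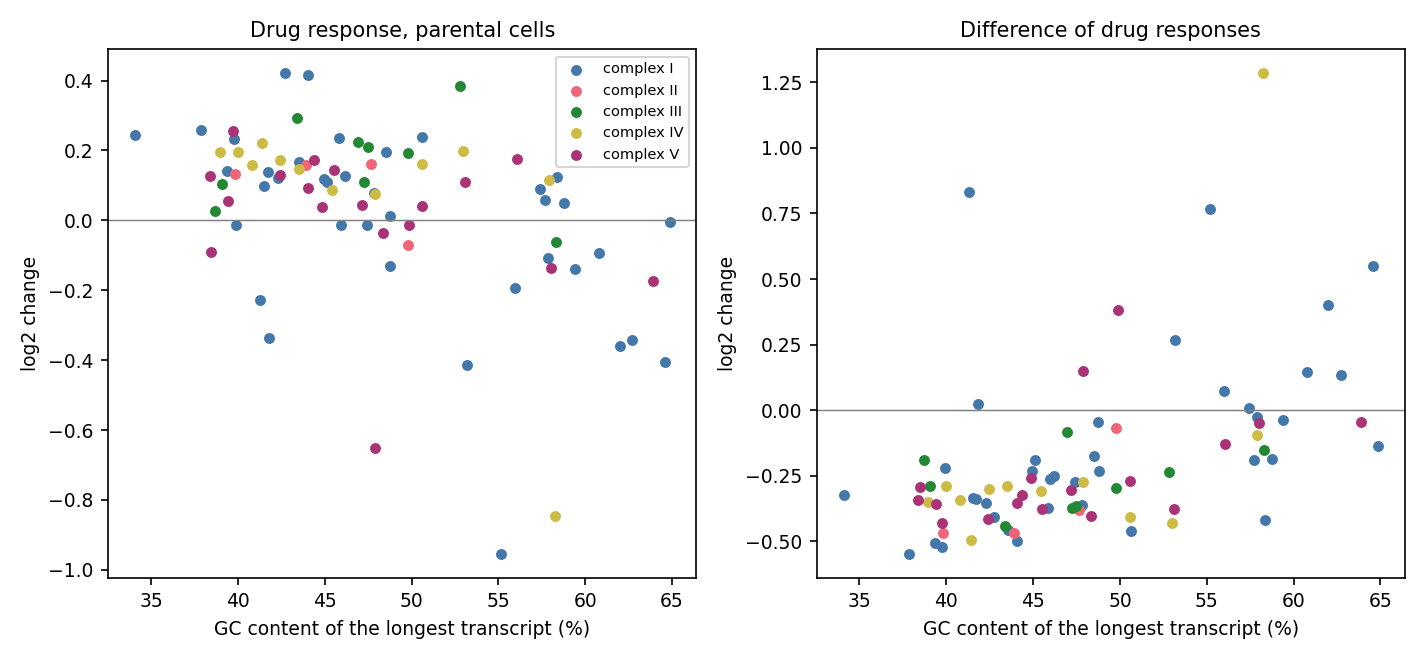
GC content of the longest transcript (horizontal axis, percent) against the log2 change with indisulam in parental cells (left) and the difference of the responses (right) for the 81 tested subunits, coloured by complex. Members of higher GC tend to lie lower in the left panel (Spearman's rho -0.46) and higher in the right panel (0.54).

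Across the 81 members, Spearman's rho of GC content was -0.46 with the parental response, 0.32 with the resistant response and 0.54 with the difference (Pearson's r -0.45, 0.27 and 0.49). Over the 12484 genes it was -0.33, 0.056 and 0.31. These are descriptions across genes, which share the same 8 libraries and are not independent. A correction of the counts for GC and length left 42 subunits higher and 12 lower in parental cells, with a median of 0.072 against 0.034 over all genes. The part of GC in these results was not tested further. In resistant cells the medians of the low, middle and high GC classes were -0.21, -0.22 and -0.13, all below 0.

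By exon number, the median change in parental cells was 0.13 in the 48 members of at most 4 exons, 0.043 in 19 members of 5 to 7 exons and -3.1e-05 in 14 members of 8 or more, against 0.10, 0.090 and 0.024 over all nuclear protein-coding genes. In resistant cells the same classes of members had medians of -0.17, -0.22 and -0.22.

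Members were also divided by the letters of their promoters. A member with more than 1 window was classed by the first window listed, so motifs in its other windows were not counted. ATP5MC2, NDUFA5 and NDUFC1, for example, had windows both with and without the NRF1 core. The 22 tested members with the NRF1 core in the window used had a median change of 0.13 in parental and -0.21 in resistant cells. The 44 without it in that window had 0.082 and -0.18. Between the lines on the drug, the medians were -0.43 and -0.26. For the YY1 motif the medians on the drug between lines were -0.37 in 8 members with it and -0.30 in 58 without it, and for the ETS motif -0.35 in 20 and -0.29 in 46. With the NRF1, YY1 and ETS motifs alike, members with and without the motif had medians of the same sign in both drug responses. The 7 members with the E-box had a median of -0.092 in parental and -0.19 in resistant cells, and -0.60 between the untreated lines. The 59 without it had 0.11, -0.18 and -0.013. Among the 7 were NDUFA7, NDUFA11 and NDUFS7, whose exons overlap other genes, and the part of this in the medians was not tested. The presence of a motif is a description of the window and does not show binding.

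Transcripts of the mitochondrial genome, which encode the core subunits built together with the members, had medians of the opposite sign to the nuclear members in both drug responses. In parental cells 12 of 13 fell and none rose, with a median of -0.77, where 26.6% of all genes were lower. MT-ATP8, a subunit of ATP synthase, stood at 347 and 355 CPM without and 201 and 181 CPM with the drug and fell by 0.88 (SE 0.073, adjusted p 0.00014). In resistant cells 4 of 13 rose, 9 were not called and none fell, with a median of 0.28. The share called higher, 30.8%, was near the 24.9% of all genes. MT-CYB, the cytochrome b of complex III, stood at 2177 and 2584 CPM off and 3579 and 3237 CPM on the drug and rose by 0.52 (SE 0.13, adjusted p 0.029). The difference of the responses was higher in 13 of 13, with a median of 0.91, against lower in 59 of 81 nuclear members. Over all genes it was higher in 22.7% and lower in 27.5%. The RNA was selected for poly(A) tails, which on mitochondrial transcripts are short, and the part of this capture in the levels was not tested.

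The subunits and carriers outside the name rule were tested as well. CYCS, cytochrome c, rose by 0.22 (SE 0.027, adjusted p 3.3e-07) in parental cells and fell by 0.23 in resistant cells, and on the drug it was lower by 0.73 (SE 0.028, adjusted p 6.7e-17) in resistant cells. NDUFAB1, the acyl carrier protein of complex I, rose by 0.18 and fell by 0.19 likewise. CYC1, cytochrome c1 of complex III, fell by 0.24 in parental and 0.43 in resistant cells. DMAC2L, a factor of ATP synthase coupling, fell by 1.13 (SE 0.051, adjusted p 3.6e-14) in parental and 0.60 in resistant cells, from 22.0 and 22.5 to 10.2 and 10.12 and from 19.9 and 18.9 to 13.5 and 12.2 CPM.

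Lists of assembly factors, mitochondrial ribosomal proteins and TCA cycle enzymes had medians of the same sign as the members in both drug responses. Over all genes 31.6% were higher and 26.6% lower in parental cells, and 24.9% higher and 25.8% lower in resistant cells. Of 62 assembly factors, which build the complexes, 41 rose and 7 fell in parental cells (median 0.19), while 31 fell and 4 rose in resistant cells (median -0.11). NDUFAF1, an assembly factor of complex I, rose by 0.56 and FOXRED1 fell by 0.65 in parental cells. Of 77 tested proteins of the mitochondrial ribosome, which translates the mitochondrial genes, 48 rose and 5 fell in parental cells (median 0.13), while 49 fell and 2 rose in resistant cells (median -0.15). MRPL24 fell by 0.59 (SE 0.033, adjusted p 7.5e-13) in resistant cells. The 14 enzymes of the TCA cycle, which feeds complexes I and II, split into 6 higher and 5 lower in parental cells (median 0.028). In resistant cells 10 of them fell and 2 rose (median -0.22), with SUCLG2 lower by 0.53.

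Of 14 regulators of mitochondrial biogenesis, 7 rose and 3 fell in parental cells, and 2 rose and 7 fell in resistant cells. The shares called in either direction, 71.4% and 64.3%, lay not far from the 58.2% and 50.7% of all genes. By direction, 50% rose and 21.4% fell in parental cells, against 31.6% and 26.6% of all genes. In resistant cells 14.3% rose and 50% fell, against 24.9% and 25.8%. TFAM, which packages and transcribes mitochondrial DNA, rose by 0.31 (SE 0.035, adjusted p 1.5e-07) in parental and fell by 0.14 (SE 0.035, adjusted p 0.0019) in resistant cells. GABPA, an ETS factor, rose in both lines, by 0.36 and 0.24. NRF1 rose by 0.19 in parental cells and was not called in resistant cells (-0.023). PPARGC1B, a coactivator of these factors, fell by 0.84 (SE 0.056, adjusted p 1.3e-11) in resistant cells, from 15.3 and 16.1 to 8.63 and 8.82 CPM. PPARGC1A, its better known relative PGC-1alpha, had 0 reads in all 4 parental libraries. Resistant cells had 11 and 9 reads off the drug and 22 and 27 reads on it. Against a floor of 3 reads per parental library, its level in resistant cells was at least 5.17-fold higher off and at least 7.71-fold higher on the drug, with mean levels of 0.144 and 0.304 CPM.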

How the data were processed

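Panc10.05 RNA was sequenced as 8 stranded, poly(A)-selected libraries. The authors deposited counts of reads per Ensembl gene, from reads that, per the study's methods, were trimmed with SeqPurge and aligned to GRCh38 with HISAT2 (2.2.1 per the submitters' processing notes). The closing lines of the count files list marked duplicates apart from the gene counts. HTSeq and Picard are also named in those notes. The annotation release and strand setting of the counting were not given in the sources used here. The 9 summary lines that name no gene (37.9 to 44.9% of each file's total) were left out.

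Symbols, types and positions came from GENCODE release 44 (60419 of 60675 IDs matched). Counts were filtered with filterByExpr, scaled by TMM and fitted with edgeR (4.0.16, R 4.3.3) over all 8 libraries with 4 group means, leaving 4 residual degrees of freedom. The quasi-likelihood test was run for 5 contrasts with Benjamini-Hochberg adjustment over 16661 genes, and an adjusted p under 0.05 was called. SEs were obtained as the absolute log2 change over the root of the F statistic. With 2 libraries against 2, an exact permutation test of single genes cannot go below p = 0.333 and was not used. The fit was checked on simulated counts.

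The members and gene lists were chosen with earlier results of these data known. Named subunits were, per contrast, the 3 largest called rises and falls without overlap of libraries, a set list of catalytic subunits, and tissue-restricted paralogs with their common forms. The subunits named as falling in both lines, the NDUFA8 and ATP5IF1 values in further contrasts, and CYCS, TFAM, NRF1 and GABPA were added after their values were seen where this rule did not take them. Some genes that the rule named are not reported here.

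Replicate pairs differed by more than counting noise (mean chi-square per gene 2.07 to 6.33), so none was merged. Counting intervals and floors cover counting error alone. No block was used in the main fit, because the study's methods state no pairing of same-numbered libraries. Correlations of the deviations of same-numbered libraries ranged from -0.19 to 0.14. Alternatives changed the scaling, filter, test (DESeq2 1.42.0), threshold, samples, GC and length correction (mgcv 1.9.3), depth and libraries.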

Additional observations from a re-analysis of the deposited data

Results flagged for a closer look

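Drug responses of the lines differed, by the interaction term of the same edgeR fit, for 63 of the 81 tested subunits, where 50.1% of all genes were called. Values are the log2 change in resistant cells minus that in parental cells. Among the central subunits of complexes II and III the difference was -0.47 for SDHB, -0.38 for SDHC, -0.47 for SDHD, -0.15 for UQCRC1, -0.19 for UQCRC2 and -0.44 for UQCRFS1. In complex IV it was -0.28 for COX4I1, -0.31 for COX5A, -0.43 for COX5B, -0.34 for COX6A1, -0.41 for COX6B1, -0.30 for COX7A2, -0.50 for COX7B and 1.29 for the sparse COX6B2. In ATP synthase it was -0.38 for ATP5F1A, -0.27 for ATP5F1B, 0.15 for ATP5MC1, -0.40 for ATP5MC2, -0.29 for ATP5MC3 and 0.38 for ATP5IF1. The remaining values were -0.51 for NDUFA4, -0.55 for NDUFB3, -0.52 for NDUFB5 and 0.83 for NDUFV2. The calls of UQCRC1, UQCRC2 and ATP5MC1 were lost in several alternatives. The parental cells had 18 h of drug and the resistant cells continuous drug, so that line and exposure cannot be told apart in these differences.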

How the results depend on the processing

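The counts of called subunits stayed within 1.5 times in all 5 comparisons under DESeq2 size factors, the DESeq2 Wald test, both filters, an adjusted p under 0.01 and thinning. A test against a minimum change of 0.5 log2 units (edgeR's glmTreat) left 1 subunit with the drug in parental cells, 0 in resistant cells (0 also at an unadjusted p under 0.05; the test without a minimum called 66 and DESeq2 62), 6 between the untreated lines, 9 between the lines on the drug and 1 for the difference of the responses. Over all 16661 genes tested, the same test left 1042, 879, 2582, 3509 and 908 genes in that order. No median over all tested subunits changed sign. By complex, the parental median of complex V turned with library totals, a mean CPM of at least 1 and protein-coding genes alone, to -0.018, -0.0077 and -0.0051. Between the untreated lines that of complex IV turned to 0.028 with the GC and length correction (0.027 with the block) and 0.043 without resistant untreated replicate 2, and that of complex V to 0.0014 with DESeq2 size factors, 0.0013 with the DESeq2 Wald test and 0.030 without resistant untreated replicate 2. Several medians over all tested subunits moved by more than the spread between libraries, and the cause was not tested. The parental median of 0.11 became 0.043 with library totals, 0.079 without a filter, 0.053 with a mean CPM of at least 1, 0.089 with only the groups compared, 0.072 with the GC and length correction, 0.055 among protein-coding genes and 0.087 after thinning. The resistant median became -0.14 with library totals. Between the untreated lines it became -0.055 with library totals and -0.052 among protein-coding genes. Between the lines on the drug it became -0.23 with library totals, -0.24 with a mean CPM of at least 1, -0.25 with the GC and length correction and -0.28 among protein-coding genes. For the difference it became -0.17, -0.21, -0.23 and -0.22 under the same settings.

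Leaving out 1 library at a time gave 41 to 57 calls and a median of 0.068 to 0.10 in parental cells, 57 to 67 and -0.23 to -0.17 in resistant cells, 34 to 46 and -0.047 to -0.0023 between untreated lines, 65 to 69 and -0.32 to -0.28 between the lines on the drug, and 59 to 64 and -0.30 to -0.23 for the difference. The lone library left in a group is then assumed to vary like the others.

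The replicate block gave 57, 65, 42, 67 and 63 calls in the order of the report, and with the GC and length correction medians of 0.072 in parental cells, -0.25 between the lines on the drug and -0.23 for the difference. Crossing the numbers of the resistant untreated libraries, added after seeing the data for their correlation of -0.11 with the resistant indisulam libraries, gave 61, 68, 44, 69 and 66. Leaving out members with large same-strand overlaps, also added after seeing the data, gave 56, 62, 39, 63 and 61.

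A value called in neither the main fit nor the alternative was counted as kept, even if its sign changed. Of 3317 values of named subunits under alternatives, 3028 were kept in this sense or with the same call and direction. A further 237 lost the call, 44 gained it and 8 turned while called in the main fit or the alternative. All 8 came with the GC and length correction, alone or with the replicate block: UQCRC2 was then -0.070 in parental cells under both, and 0.015 and 0.016 between the lines on the drug, and between the untreated lines NDUFV1 was -0.081 under both and COX6A1 0.137 and 0.136. Depth limited NDUFA7, COX6B2, NDUFV2, UQCRHL and NDUFA4L2, each with at most 200 reads in any library.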
